A study of Homo sapiens with 18 samples.

Results

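HT-29 cells, an established human colon cancer line, were compared between 3 arrays of cells treated with erastin (ER) for 4 h and 3 arrays of untreated cells. These 6 arrays were chosen by their titles out of the 18 of the series, which also holds HT-29 cells after 24 h of ER and HCT116 cells, another colon cancer line, in the same 3 conditions. Total RNA (100 ng per array) was measured on Affymetrix whole-transcriptome arrays, and per the methods the treated cells received 2.5 µM ER in 3 independent experiments. One untreated group served both times, with no time in culture and no vehicle stated for its arrays, so what is given below as a change after ER is not separated from either. The comparison ran over 135750 transcripts, and genes are named from the 35528 transcript clusters that the platform annotates to a single gene.

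ER blocks the cystine/glutamate antiporter, whose transporting chain is SLC7A11. Cells short of cystine make less glutathione, the cofactor with which GPX4 removes lipid peroxides, and iron-dependent lipid peroxidation then leads to ferroptosis. Shortage of amino acids is also known to act through ATF4, a transcription factor of the integrated stress response, on amino acid synthesis and transport genes. Cells that meet a new stimulus often pass first through an early wave of transcription, in which serum response factor (SRF), the YAP cofactor with its TEAD partners, and the AP-1 factors drive genes of adhesion, matrix and growth factor signalling.

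The arrays labelled HT-29 did not share 1 pattern of colon markers. LYZ, which encodes lysozyme, had a log2 signal of 16.94, 10.39 and 11.17 on the untreated arrays of replicates 1, 2 and 3 and of 16.95, 10.12 and 10.78 on the 4 h arrays. KRT20, an intestinal keratin, had 14.81, 9.07 and 8.49 untreated and 14.91, 8.64 and 9.14 at 4 h. CEACAM5, the carcinoembryonic antigen, had 10.68, 7.21 and 6.63 untreated and 10.45, 6.02 and 6.37 at 4 h. In all 3 genes both replicate 1 arrays stood apart, and the highest of the 9 HCT116 arrays read 6.13 for LYZ, 7.81 for KRT20 and 5.24 for CEACAM5. Of 30 intestinal epithelium markers, 8 lay more than 2 log2 units above every HCT116 array on the untreated array of replicate 1 and 9 on its 4 h array, against 1 on each array of replicates 2 and 3. In bulk RNA of this kind, fewer cells with a marker and less of its RNA per cell cannot be told apart. CDX2, an intestinal transcription factor, did not follow this, with 8.20, 8.59 and 9.07 untreated. Over all single-gene transcripts, untreated replicate 2 correlated at 0.980 and 0.988 with the other untreated HT-29 arrays and at 0.981 to 0.991 with the 3 untreated HCT116 arrays. Untreated replicate 1 correlated at 0.979 to 0.980 with the other untreated HT-29 arrays and at 0.974 to 0.979 with those of HCT116, and untreated replicate 3 at 0.979 and 0.988 with the former and at 0.986 to 0.988 with the latter. With the mean of the 9 HCT116 arrays, which were normalized apart from HT-29, the untreated arrays of replicates 1, 2 and 3 correlated at 0.983, 0.993 and 0.992, and the 4 h arrays at 0.981, 0.979 and 0.987. Replicates 2 and 3 thus lacked the levels of these markers that replicate 1 had, and their untreated arrays lay closer to HCT116, so that their identity as HT-29 cells is in doubt. They are called by their labels throughout, and the leading changes and the counts of the main gene groups are also given without replicate 1. None of the 30 markers was a DET at 4 h, a differentially expressed transcript, here one that passes the thresholds of the methods (fold of at least 1.2 and unadjusted p of at most 0.005) in limma, which is not the test that the methods name. The markers' mean signal lay between 5.98 and 7.31 on the untreated and between 6.09 and 7.27 on the 4 h arrays. Markers of fibroblasts, leukocytes and endothelium averaged between 5.52 and 6.66 on every array, and FAP, a membrane protease counted among the fibroblast markers, was the only DET of these lists.

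Over all transcripts 199 DETs were higher after 4 h (0.147%) and 104 were lower (0.0766%). Together they made up 0.223% of the transcripts, fewer than the 0.5% that a p of at most 0.005 admits if no group differs. No transcript passed a Benjamini-Hochberg adjusted p of 0.05 in limma, the lowest adjusted p was 0.925, and 4770 transcripts (3.51%) had an unadjusted p under 0.05, which admits 5% if no group differs. The SEs of the log2 fold changes had a median of 0.29. All fold changes are differences of deposited log2 values, which reach 19.91, above the 16 that 16 scanner bits allow on this scale. The size of a fold is therefore in doubt. With no adjusted call over 3 replicates, the sign of a fold is given as measured and is not established.

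Of the single-gene transcripts, 45 were DETs higher after 4 h (0.127%) and 11 were DETs lower (0.031%). The genes with the largest rises encode secreted and cell surface proteins of matrix, clotting and growth factor signalling, and transcription factors of the early response. The falls were led by DDIT4 and BCL6. All 45 and all 11 had the same sign in each of the 3 differences between arrays of the same number, with medians of 0.82, 1.26 and 1.24 for those that rose and of -0.59, -1.70 and -1.25 for those that fell. These DETs were chosen on the same arrays, so a shared sign is largely given by that choice. A fit of replicates 2 and 3 alone reused arrays of that choice. In it 23 of the 45 and 8 of the 11 were DETs again, and the other 22 and 3 kept their sign. Of the 45 transcripts, 25 had a mean untreated signal under 6, a limit chosen after the values were seen, and beside RELB, BACH2 and FAP these were mostly pseudogenes, small RNAs and genes such as HTR5A, a serotonin receptor, and HAPLN1, a cartilage link protein.

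The stretches of promoter that follow show, for 4 genes of the early response, the sequence motifs of the factors named above. The 4 were picked as examples that hold a match, and SRF was no DET over 3 replicates. They are the 250 bases before the start of transcription in RefSeq (GRCh38.p14), with the motif in capitals. GGAATG is the core bound by TEAD factors, TGANTCA is the AP-1 element, and the CArG box is the element bound by SRF, all searched on both strands.
THBS1, chr15:39580829-39581078, plus strand: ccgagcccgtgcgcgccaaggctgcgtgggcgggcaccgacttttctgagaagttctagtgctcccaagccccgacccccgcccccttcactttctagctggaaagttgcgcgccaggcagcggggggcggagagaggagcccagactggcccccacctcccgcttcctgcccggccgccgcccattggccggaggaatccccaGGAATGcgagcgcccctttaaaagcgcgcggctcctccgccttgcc
DKK1, chr10:52314031-52314280, plus strand: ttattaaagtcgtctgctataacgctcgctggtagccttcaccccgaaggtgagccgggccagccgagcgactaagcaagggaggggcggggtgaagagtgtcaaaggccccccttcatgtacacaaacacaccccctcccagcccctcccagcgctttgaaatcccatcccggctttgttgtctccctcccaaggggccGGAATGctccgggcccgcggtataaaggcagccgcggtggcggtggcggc
F3, chr1:94541760-94542009, minus strand: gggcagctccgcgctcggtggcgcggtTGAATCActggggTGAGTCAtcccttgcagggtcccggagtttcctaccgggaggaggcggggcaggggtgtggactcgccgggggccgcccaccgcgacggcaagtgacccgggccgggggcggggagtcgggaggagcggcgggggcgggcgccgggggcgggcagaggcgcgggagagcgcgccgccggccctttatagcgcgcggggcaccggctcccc
SRF, chr6:43171019-43171268, plus strand: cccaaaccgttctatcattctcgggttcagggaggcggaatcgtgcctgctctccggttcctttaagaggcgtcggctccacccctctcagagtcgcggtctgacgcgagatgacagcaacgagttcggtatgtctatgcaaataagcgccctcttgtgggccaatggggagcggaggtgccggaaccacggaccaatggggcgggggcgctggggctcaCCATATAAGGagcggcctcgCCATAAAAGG
The match in THBS1 begins 46 bases before the start, that in DKK1 50 bases before it, those in F3 223 and 210 bases before it, and those in SRF 30 and 10 bases before it. Over all 35116 such promoter windows, 11.9% hold GGAATG, 6.57% hold TGANTCA and 1.16% hold a CArG box. Of the 45 genes that rose, 24 had a promoter window in the table, with 29 windows among them: 6 windows held GGAATG, 4 held TGANTCA, and 4 held a CArG box, 3 of those 4 in FHL2. A match is only a run of letters and says nothing on whether a factor was bound.

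Secreted and membrane proteins led the rises. THBS1 encodes thrombospondin, a matrix glycoprotein that restrains vessel growth and activates TGF-beta, and lies on chromosome 15 (39581079 to 39599466). Its log2 signal was 8.65, 7.31 and 7.58 on the untreated arrays and 10.16, 10.95 and 11.70 on the 4 h arrays. Every 4 h array lay above every untreated one by more than 1 log2 unit, replicate 1 having the highest untreated and the lowest 4 h value. The log2 fold change was 3.09 (SE 0.41, limma adjusted p = 0.925). In replicates 2 and 3 alone it was 3.87 (SE 0.34), with an adjusted p of 0.0439, which made THBS1 the 1 transcript of 135750 called in that fit (0.000737%, with 11943 or 8.8% at an unadjusted p under 0.05). With the replicate number as a block, the fit of replicates 2 and 3 called 0 transcripts, so this call was lost. Replicate 1 by itself gave 1.51.
F3 encodes tissue factor, the membrane receptor that starts the clotting cascade. Its signal was 8.91, 9.12 and 9.06 untreated and 10.60, 11.22 and 11.84 at 4 h. The untreated arrays were close together and the 4 h arrays were all higher, by 2.19 (SE 0.31, limma adjusted p = 0.982), and by 2.44 (SE 0.32) without replicate 1. F3 was a DET in all 22 alternative settings tried, with values of 1.88 or more.
DKK1, a secreted antagonist of the LRP5 and LRP6 receptors of Wnt signalling, had 12.92, 12.41 and 12.57 untreated and 14.06, 14.72 and 15.25 at 4 h. The groups did not overlap, and the change was 2.04 (SE 0.35), with 1.14 in replicate 1, 2.31 in replicate 2 and 2.69 in replicate 3. The size of this rise depended on the processing: its lowest value over the 22 alternative settings was 1.05, below that of any replicate.

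**Figure D1:**
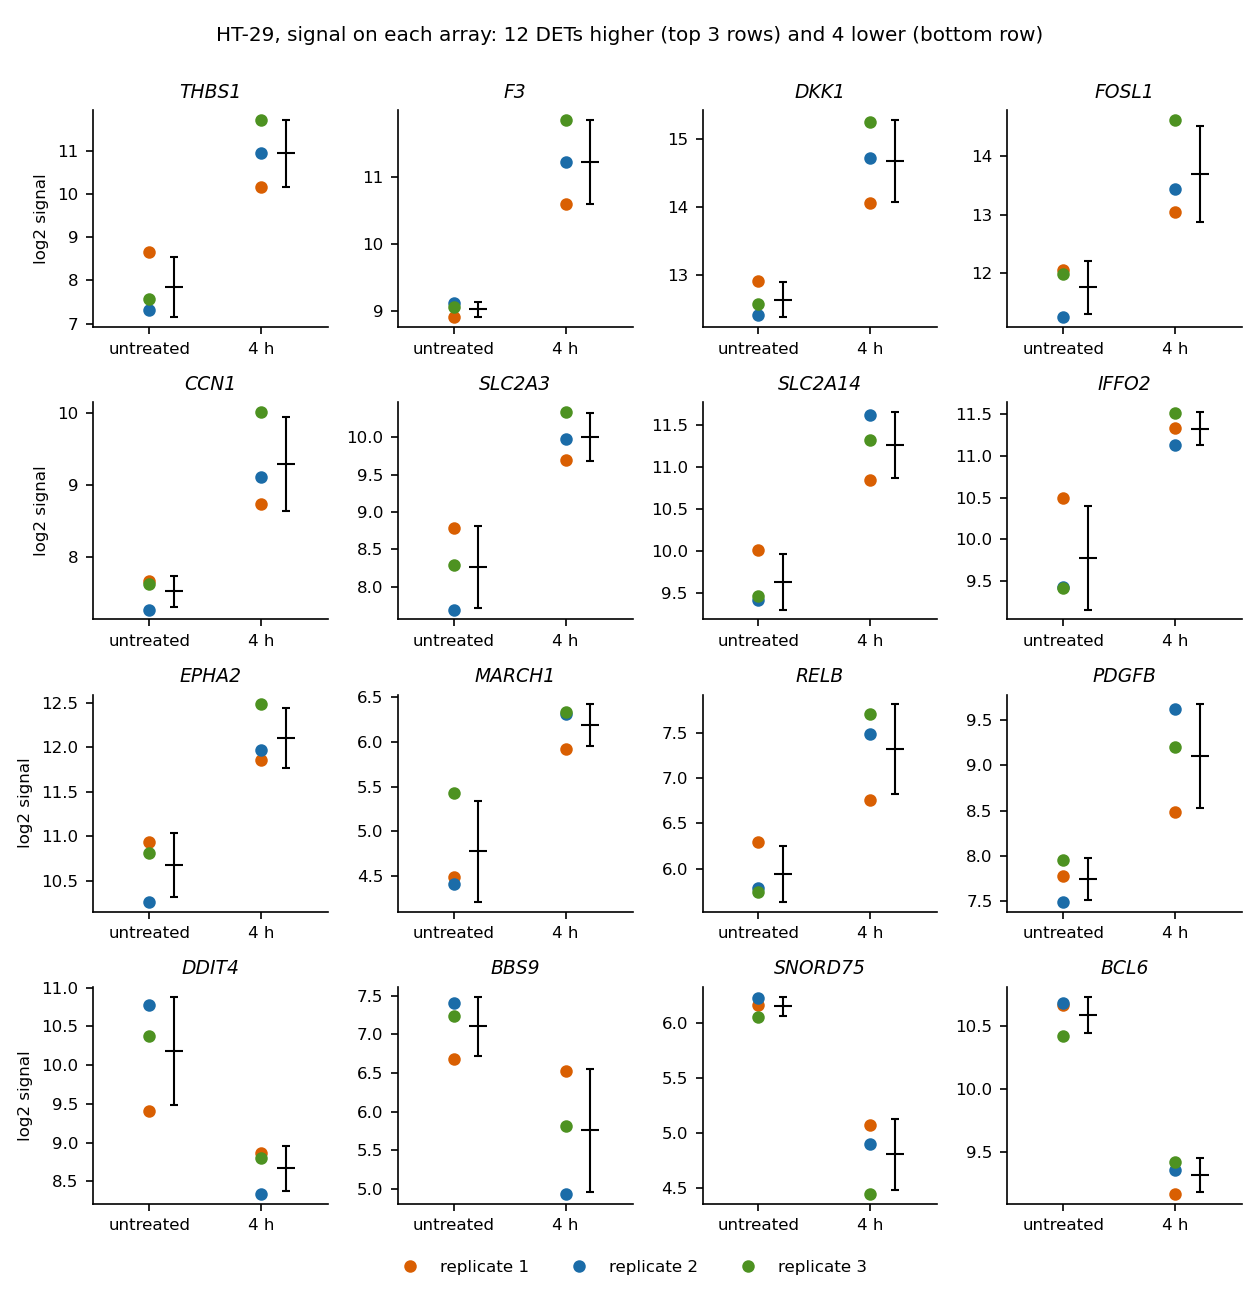
Log2 signal of 16 DETs on each of the 6 HT-29 arrays, untreated on the left of a panel and 4 h on the right, coloured by replicate, with the mean and SD (n = 3) in black. The genes were drawn from DETs whose groups do not overlap. In the 12 that rose every 4 h array therefore lies above every untreated array, and in the 4 that fell every one lies below. The smallest gap between groups is in BBS9.

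CCN1, a matricellular protein of wound repair, and PDGFB, the B chain of platelet-derived growth factor, rose in the same way. CCN1 went from 7.66, 7.26 and 7.62 to 8.74, 9.11 and 10.02, a change of 1.78 (SE 0.32). PDGFB went from 7.78, 7.49 and 7.95 to 8.48, 9.62 and 9.20, a change of 1.36 (SE 0.30). EPHA2, a receptor tyrosine kinase for ephrins, rose from 10.94, 10.26 and 10.82 to 11.85, 11.97 and 12.48, or 1.43 (SE 0.29). NRG1, the neuregulin ligand of ERBB3 and ERBB4, rose by 1.14 (SE 0.26). All 4 were DETs in replicates 2 and 3 alone too, at 2.13 for CCN1, 1.68 for PDGFB, 1.69 for EPHA2 and 1.23 for NRG1. Of 19 measured EGF family ligands, ERBB and EPHA receptors, EPHA2 was the only DET, where 0.127% of single-gene transcripts were DETs higher. Their median log2 fold change was 0.05 against 0.02 over all single-gene transcripts, NRG1 not being on that list. In 2 of the 19 every 4 h array lay above every untreated one (10.5% against 4.95% of all transcripts), and in 3 below (15.8% against 2.91%). In replicates 2 and 3 alone EPHA2 was a DET higher (5.26%, against 0.296% of single-gene transcripts) and EFNA1 one lower (5.26%, against 1.33%).

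Transcription factors and signalling proteins formed a further group. FOSL1, the Fra-1 subunit of AP-1, had 12.05, 11.25 and 11.99 untreated and 13.04, 13.44 and 14.61 at 4 h, a change of 1.94 (SE 0.51). It was no DET without any 1 of the 3 untreated arrays, the replicate 2 or the replicate 3 array at 4 h. RELB, a subunit of NF-kB of the noncanonical pathway, went from 6.30, 5.79 and 5.74 to 6.76, 7.48 and 7.71, or 1.37 (SE 0.29), and the rise was smallest in replicate 1. ID2, an inhibitor of basic helix-loop-helix factors, went from 10.82, 10.85 and 11.07 to 11.56, 12.53 and 12.68, or 1.34 (SE 0.30). MAP2K3, a kinase that activates p38, rose by 1.31 (SE 0.35) and NUAK2, a kinase related to AMPK, by 1.21 (SE 0.35). FHL2, a LIM domain cofactor, rose by 1.18 (SE 0.31) and was no DET without untreated replicate 1 or 2 or 4 h replicate 2 or 3. POLR1G, a subunit of RNA polymerase I, rose by 0.96 (SE 0.25) and lost its DET status without any 1 untreated array or the replicate 1 or 3 array at 4 h. BACH2, a transcriptional repressor, went from 5.18, 5.28 and 4.83 to 6.43, 6.04 and 5.93, low on the scale throughout. In replicates 2 and 3 alone the values were 2.41 for FOSL1, 1.83 for RELB, 1.64 for ID2, 1.86 for MAP2K3, 1.58 for NUAK2 and 1.49 for FHL2, all DETs, whereas POLR1G at 0.92 and BACH2 at 0.93 were none.

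The glucose transporters were read by probes that cannot be told apart with certainty. SLC2A3, a high-affinity glucose transporter, went from 8.79, 7.69 and 8.29 to 9.69, 9.97 and 10.33, or 1.74 (SE 0.32). SLC2A14, its near-identical neighbour on chromosome 12, went from 10.02, 9.42 and 9.47 to 10.84, 11.62 and 11.32, or 1.63 (SE 0.27). Without replicate 1 the changes were 2.16 and 2.03. How the signal divides between these paralogs is uncertain. SLC2A1, the basal glucose transporter, was no DET over 3 replicates, at 0.98 (SE 0.32), and was one in replicates 2 and 3, at 1.29. Of 18 measured genes of the hypoxia response, 1 was a DET higher, where 0.127% of single-gene transcripts were, and the list's median was 0.00. In replicates 2 and 3 alone, 2 were higher (11.1%, against 0.296% of single-gene transcripts) and 1 was lower (5.56%, against 1.33%). IFFO2, an intermediate filament family gene, completed the larger rises at 1.55 (SE 0.30), and the transcript that the platform names MARCH1 rose by 1.41 from a signal under 5.5.

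The falls were fewer. DDIT4 encodes REDD1, an inhibitor of MTORC1 that stress normally induces. It had 9.40, 10.77 and 10.37 untreated and 8.86, 8.34 and 8.80 at 4 h, lower on every array, by -1.51 (SE 0.34). Replicate 1 gave -0.54, replicate 2 gave -2.43 and replicate 3 gave -1.57. DDIT4 was no DET without untreated replicate 2, at -1.22. BCL6, a zinc finger repressor known from germinal centre B cells and as a target of FOXO factors, had 10.67, 10.68 and 10.42 untreated and 9.17, 9.36 and 9.42 at 4 h. It was the fall with the smallest spread, at -1.27 (SE 0.22), it was the 1 lower DET whose difference in replicate 1 (-1.50) was larger than that in replicates 2 and 3 (-1.16), apart from RNU6-453P, and it was a DET in all 22 alternative settings. ZKSCAN3, a zinc finger factor known to repress autophagy genes, fell by 1.15 on the log2 scale (SE 0.30), and BBS9, a subunit of the BBSome of cilia, by 1.35 (SE 0.39), with 6.53 on the 4 h array of replicate 1 against 6.68 on its untreated array. TENT5A, a noncanonical poly(A) polymerase, fell by 0.99 (SE 0.29) and LRRC28, a leucine-rich repeat protein, by 0.95 (SE 0.27). Over the 22 alternative settings the value of LRRC28 ranged from -1.18 to -0.50. The DET status of ZKSCAN3, BBS9, TENT5A and LRRC28 was lost in 4 to 8 of the 9 fits that left out 1 array, and in replicates 2 and 3 alone ZKSCAN3 (-1.43), BBS9 (-1.95) and LRRC28 (-1.18) were DETs and TENT5A (-1.16) was none. The other lower DETs were the small RNAs SNORD75 and RNU6-453P, the pseudogenes LOC389765 and UBE2Q2P11 and the long noncoding RNA LOC100506730. SNORD75 ranged from -1.48 to -0.57 over the alternative settings.

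Known targets of SRF and YAP were among the genes that rose. Of 26 measured targets, on a list chosen with earlier results of these data known, 4 were DETs higher, namely THBS1, F3, CCN1 and FHL2, and none was lower, where 0.147% of all transcripts were DETs higher. They were 4 of the 45 single-gene DETs that rose. In replicates 2 and 3 alone 7 were DETs higher (26.9%, against 0.296% of single-gene transcripts), the other 3 being VCL, SRF and MYL9, and none was lower. Their median log2 fold change was 0.47, against 0.04 over all transcripts, 23 of the 26 were positive, and 8 had every 4 h array above every untreated array (30.8% against 4.95% of all transcripts). The median was 0.35 in replicate 1, 0.52 in replicate 2 and 0.72 in replicate 3. Further members, named after their values were seen, missed the p threshold over 3 replicates: VCL, the adhesion protein vinculin, at 1.04 (SE 0.31), CCN2, the connective tissue growth factor, at 0.97 (SE 0.30), AJUBA, a LIM protein that binds the LATS kinases, at 0.98 (SE 0.30), and SRF itself at 1.12 (SE 0.41). SRF had 10.12, 9.28 and 9.67 untreated and 10.01, 10.95 and 11.48 at 4 h. It was higher in replicates 2 and 3 and not in replicate 1, where the difference was -0.12. Of the structural targets, the values were 0.19 (SE 0.31) for ACTB, 0.26 (SE 0.28) for ACTG1, -0.00 (SE 0.65) for TPM1 and -0.04 (SE 0.24) for CNN1.

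Of 18 measured AP-1, EGR and other immediate early factors, 1 was a DET higher, FOSL1, with a list median of 0.15. In replicates 2 and 3 alone 3 were (16.7%), FOSL1, FOSL2 and NR4A1. Over all single-gene transcripts 0.127% were DETs higher over 3 replicates, and 0.296% in replicates 2 and 3 alone. FOSL2, another Fos family subunit, stood at 1.12 (SE 0.33), JUN at 1.05 (SE 0.55) and NR4A1, an orphan nuclear receptor, at 1.29 (SE 0.46). The factors of the first minutes of such a response were not higher, with -0.37 (SE 0.30) for EGR1 and -0.20 (SE 0.32) for FOS. MYC went from 14.28, 14.33 and 14.84 to 14.77, 15.95 and 16.37, or 1.21 (SE 0.39), and was a DET in replicates 2 and 3. Of 24 measured NF-kB subunits and targets RELB was the only DET, in replicates 2 and 3 alone as well, with a median of 0.23. Among its cytokines LIF stood at 0.70 (SE 0.43), with positive differences in all 3 replicates, CXCL1 at 0.34 (SE 0.22), with every 4 h array above every untreated one, and CXCL8 at 0.13 (SE 0.26). Of 21 genes of ERK feedback none was a DET, with a median of 0.19, and DUSP5, a phosphatase of nuclear ERK, stood at 1.34 (SE 0.57). In replicates 2 and 3 alone DUSP5, DUSP4 and MYEOV were DETs higher (14.3%). ETV1 was one lower (4.76%, against 1.33% of single-gene transcripts).

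**Figure D2:**
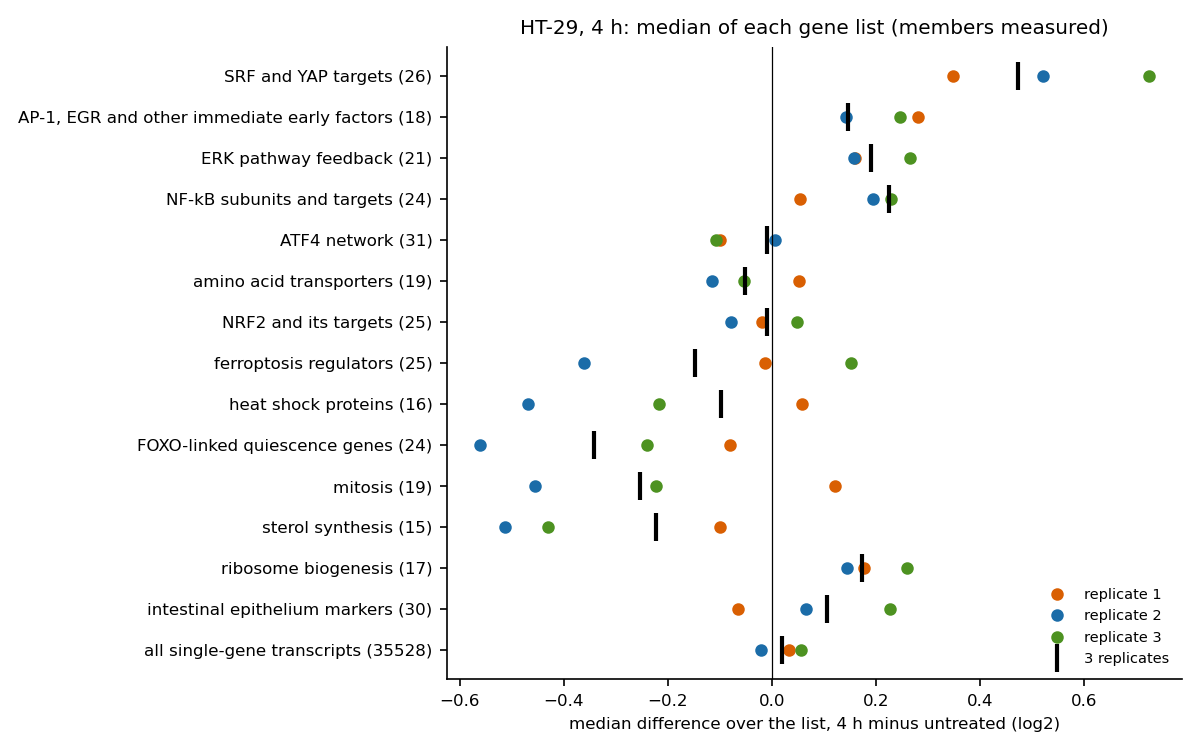
Median difference between 4 h and untreated arrays over the measured members of 15 groups of transcripts, in log2 units, for each replicate (coloured points) and over the 3 replicates (black bars). SRF and YAP targets lie to the right in all 3 replicates, with medians of 0.35, 0.52 and 0.72, and the FOXO-linked genes lie to the left, at -0.08, -0.56 and -0.24. Sterol synthesis genes lie to the left as well, at -0.10, -0.51 and -0.43.

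FOXO-linked quiescence genes were lower on balance. Of 24 measured members 1 was a DET lower, BCL6, none was higher, 5 were positive, and the median was -0.34. Over all single-gene transcripts 0.031% were DETs lower and 18795 of 35528 were positive. In 4 of the 24 every 4 h array lay below every untreated array (16.7% against 2.91% of all transcripts). ARRDC3, an arrestin-like adaptor, had 10.47, 10.43 and 10.00 untreated and 10.52, 7.90 and 7.99 at 4 h. CCNG2, the cyclin of cell cycle exit, had 8.49, 8.36 and 8.61 untreated and 8.63, 6.97 and 7.12 at 4 h. Both were lower on the 4 h arrays of replicates 2 and 3 and not on that of replicate 1, and both were DETs in replicates 2 and 3 alone. In that fit 3 of the list were DETs lower (12.5%, against 1.33% of single-gene transcripts). TSC22D3, a glucocorticoid-induced leucine zipper protein, stood at -0.61 (SE 0.25), with -0.68, -0.52 and -0.64 in the replicates, and was no DET. Of 15 measured genes of sterol synthesis none was a DET, 2 were positive and the median was -0.22. Their medians in replicates 1, 2 and 3 were -0.10, -0.51 and -0.43. In 3 of the 15 every 4 h array lay below every untreated array (20% against 2.91% of all transcripts). HMGCS1 was a DET lower in replicates 2 and 3 alone (6.67% of the list). INSIG1, which retains SREBP in the endoplasmic reticulum, had the smallest p of them, at -0.75 (SE 0.25).

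Of the genes through which ferroptosis and cystine shortage are usually followed, DDIT4 of the ATF4 network was the only DET over 3 replicates, and SLC7A11 was a further DET in replicates 2 and 3 alone. Of 25 measured ferroptosis regulators none was a DET in either fit, and the median was -0.15. GPX4 stood at 0.14 (SE 0.31), and ACSL4, the enzyme that loads membranes with oxidizable fatty acids, at -1.03 (SE 0.62), with 0.32 in replicate 1, -2.69 in replicate 2 and -0.72 in replicate 3. Of 31 measured genes of the ATF4 network DDIT4 was the only DET, where 0.031% of single-gene transcripts were DETs lower, and the median was -0.01. ATF4 stood at 0.05 (SE 0.30), ASNS, asparagine synthetase, at 0.05 (SE 0.40), CHAC1, which degrades glutathione, at -0.44 (SE 0.28), and ATF3 at 0.06 (SE 0.28). Of 25 measured NRF2 genes none was a DET, with -0.12 (SE 0.29) for NQO1 and -0.18 (SE 0.50) for HMOX1. Of 19 amino acid transporters none was a DET.
SLC7A11, the target of ER itself, had 12.94, 12.99 and 11.93 untreated and 14.32, 9.85 and 10.57 at 4 h. It was higher in replicate 1, by 1.38, and lower in replicates 2 and 3, by 2.25 on average, so the value over 3 replicates was -1.04 (SE 1.07) and the gene was no DET except in replicates 2 and 3.

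Replicates 2 and 3 by themselves gave many more DETs, most of which did not recur in replicate 1. Their fit held 105 single-gene DETs higher (0.296%) and 471 lower (1.33%), and over all transcripts 576 higher (0.424%) and 1190 lower (0.877%). Of the 471, 419 had the opposite sign in replicate 1, with a median of 0.54 there against -1.49 in replicates 2 and 3, and 8 were DETs over 3 replicates. Of the 105, 59 had the same sign in replicate 1 and 23 were DETs over 3 replicates. Without the 4 h array of replicate 1 alone, the DETs over all transcripts came to 769 higher and 671 lower. The largest such falls included DCUN1D1, a cullin neddylation factor, with 10.69, 11.18 and 10.76 untreated and 11.72, 8.23 and 8.33 at 4 h, and USP47, a deubiquitinase, with 10.65, 10.75 and 9.43 untreated and 11.75, 7.25 and 7.96 at 4 h. In both the 4 h array of replicate 1 was the highest of the 6 and the other 4 h arrays were the lowest. KIF11, a mitotic kinesin, behaved alike. Of 19 mitosis genes none was a DET over 3 replicates and 3 were DETs lower in replicates 2 and 3 (15.8%, against 1.33% of single-gene transcripts). Among the rises in replicates 2 and 3, TNS4, a focal adhesion protein, had 11.82, 9.10 and 9.33 untreated and 12.71, 10.86 and 12.23 at 4 h.

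**Figure D3:**
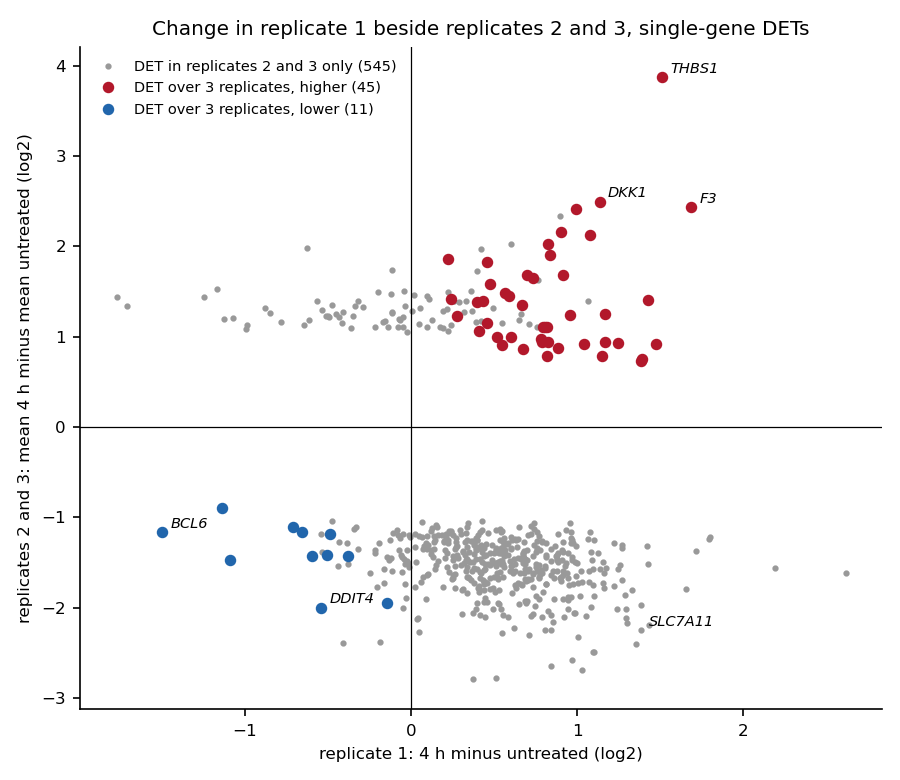
Difference between 4 h and untreated in replicate 1 (horizontal, log2) against the difference of means in replicates 2 and 3 (vertical, log2), for single-gene DETs of either fit. The 45 higher and 11 lower DETs over 3 replicates, chosen on these same arrays, lie in the quadrants where both agree in sign. Of the 471 lower DETs of replicates 2 and 3, 419, SLC7A11 among them, lie at the lower right, where replicate 1 is higher.

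Among protein-coding transcripts, the falls in replicates 2 and 3 went with the genomic span of the gene. The 375 protein-coding lower DETs of that fit spanned a median of 74.1 kb, against 26.5 kb for all 17913 protein-coding transcripts and 18.4 kb for the 57 higher ones. Their signal was higher too: the mean untreated log2 signal had a median of 10.6, against 7.42 for all and 8.61 for the higher ones. In replicate 2 the median difference went from 0.01 in the fifth of genes with the shortest span to -0.29 in the fifth with the longest, and in replicate 3 from 0.15 to -0.04. In replicate 1 it went the other way, from -0.01 to 0.14, and in HCT116 cells it stayed between 0.04 and 0.08. The background probes also moved with these arrays: those with 6 of 25 bases G or C read 8.04, 7.35 and 7.84 untreated and 7.86, 8.42 and 8.18 at 4 h, while those with 16 read 3.39 to 3.53 on all 6 arrays. The part of span, of signal and of probe composition in the falls of replicates 2 and 3 was not tested. The 30 protein-coding DETs that rose over 3 replicates had a median span of 28.8 kb, near that of all genes. Pseudogenes were left out of these spans. Yet the 8 largest falls of replicates 2 and 3 with groups that do not overlap included the olfactory receptor pseudogenes OR51B3P (-2.79), OR51B8P (-2.49) and OR51A10P (-2.40). OR51B3P, the largest of these falls, covers only bases 5314745 to 5315693 of chromosome 11.

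**Figure D4:**
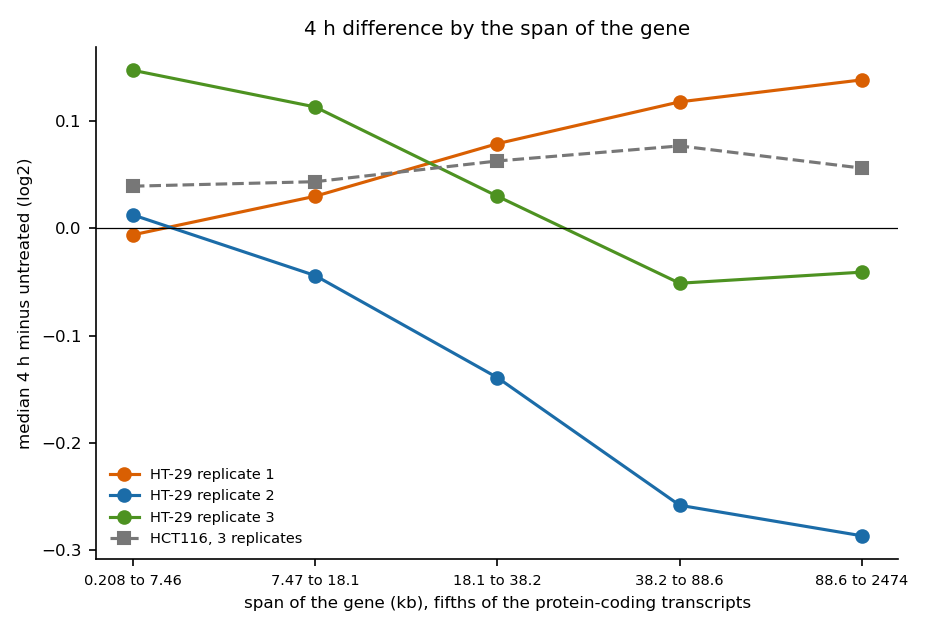
Median difference between 4 h and untreated arrays (log2) in 5 equal bins of protein-coding transcripts by the span of the gene (kb), for each HT-29 replicate and for the 3 replicates of HCT116. Replicates 2 and 3 of HT-29 fall with span, replicate 1 rises from -0.01 to 0.14, and HCT116 stays between 0.04 and 0.08.

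The arrays of HCT116 took no part in choosing the HT-29 DETs. Of the 45 higher DETs 31 were positive at 4 h in HCT116, where 53.4% of all single-gene transcripts were, 8 were DETs higher there (0.129% of single-gene transcripts were) and the median was 0.28. A mean untreated signal in HT-29 of 6 or more, a limit chosen after the values were seen, left 20 of the 45. Of these 20, 19 were positive in HCT116, with a median of 0.93. The share of positive values among all transcripts above that limit was not computed. The 8 shared DETs were THBS1, F3, CCN1, SLC2A3, SLC2A14, RELB, NUAK2 and LETM2, a mitochondrial protein. THBS1 in HCT116 had 7.77, 9.13 and 8.73 untreated and 11.53, 10.39 and 11.03 at 4 h, a change of 2.44 (SE 0.38). F3 in HCT116 had 8.80, 10.79 and 10.62 untreated and 11.84, 12.12 and 11.77 at 4 h, a change of 1.84 (SE 0.42). In both genes the groups did not overlap, and untreated replicate 1 of HCT116 was the lowest array. The difference between the lines was 0.64 (SE 0.61, adjusted p = 1.00) for THBS1 and 0.35 for F3. With replicates 2 and 3 alone for HT-29 it was 1.43 (adjusted p = 0.557) for THBS1 and 0.60 (adjusted p = 0.838) for F3 in limma, and those replicates are the arrays that lay closer to HCT116 in the colon markers. Over all replicates no transcript passed an adjusted p of 0.05 for a difference between the lines in limma, with 5132 (3.78%) at an unadjusted p under 0.05. Of the 11 lower DETs 8 were negative in HCT116 and none was a DET (0.0732% of single-gene transcripts were DETs lower there), with -0.79 (SE 0.25) for DDIT4 and -0.82 (SE 0.33) for BCL6. Of the 471 lower DETs of replicates 2 and 3, 142 were negative in HCT116 and 1 was a DET lower.

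By 24 h the leading rises had gone. The contrast of 24 h against 4 h called 31 transcripts at an adjusted p under 0.05 (0.0228%), with 8307 (6.12%) at an unadjusted p under 0.05. Of the 31, 22 were assigned to a single gene (0.0619% of those). This contrast shares its 4 h arrays with the comparison above. THBS1 read 7.92, 8.08 and 7.83 at 24 h, back among the untreated values, a change from 4 h of -2.99 (SE 0.41, limma adjusted p = 0.0452). F3 read 7.95, 8.58 and 8.34 at 24 h, below all untreated arrays, and changed by -2.93 (SE 0.31, limma adjusted p = 0.0126). DKK1 read 11.12, 10.28 and 11.31, also below all untreated arrays, and changed by -3.77 (SE 0.35, limma adjusted p = 0.00611). DDIT4 went the opposite way, to 13.10, 13.58 and 13.72, a change from 4 h of 4.80 (SE 0.34, limma adjusted p = 0.000816). BCL6 rose from 4 h to 24 h by 2.07 (SE 0.22, limma adjusted p = 0.0126), to 11.21, 11.48 and 11.47. With each of the 9 arrays left out in turn, the call held 9 times of 9 for DDIT4, 8 for DKK1, 5 for F3, 5 for BCL6, 2 for THBS1 and 0 for POLR1G, with adjusted p up to 0.303 for THBS1, and the direction held each time. EPHA2, RELB, PDGFB and ID2 stayed between the untreated and the 4 h level, at 0.85, 0.70, 0.80 and 0.78 above untreated. The median of SRF and YAP targets changed from 4 h to 24 h by -0.57 and that of the ATF4 network by 0.95.

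**Figure D5:**
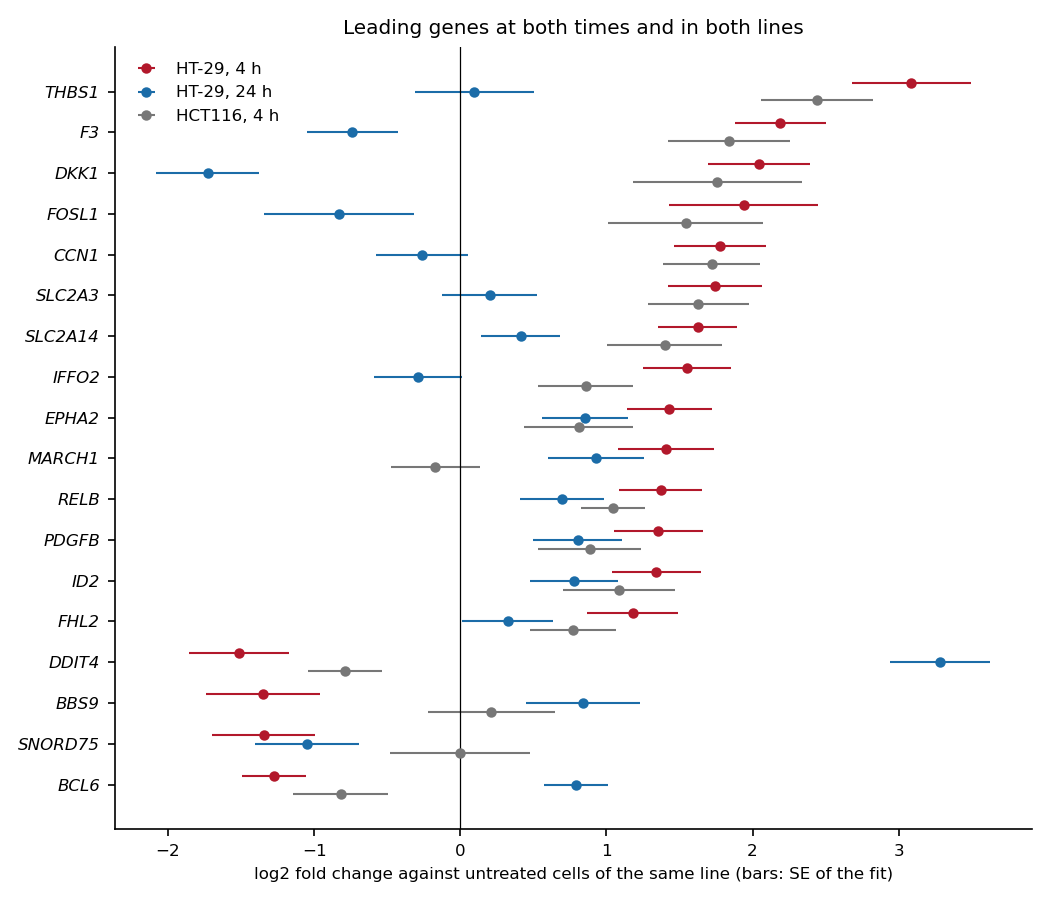
Log2 fold change against untreated cells of the same line, with the SE of the fit, for 14 genes that were DETs higher and 4 that were DETs lower at 4 h in HT-29, at 4 h and 24 h in HT-29 and at 4 h in HCT116. THBS1, F3, DKK1 and CCN1 are high at 4 h in both lines and at or below 0.10 at 24 h, and DDIT4 goes from -1.51 at 4 h to 3.28 at 24 h.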

How the data were processed

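The 6 arrays came from the values that the authors deposited, normalized log2 signals with 1 column per array. Per the methods, the authors normalized probe-set signals by RMA separately for each cell line, summarized them to transcripts by the mean and took log2. Other software is named as well, and which of these made the deposited values is not given in the sources used here. Since each line was normalized on its own, HCT116 levels set beside HT-29 levels carry that step, whereas changes within a line do not. Array medians lay between 5.44 and 5.61. Correlations between arrays were 0.970 to 0.976 within the untreated group and 0.945 to 0.960 within the 4 h group. Between the groups they were 0.954 to 0.976. The 4 h array of replicate 1 correlated at 0.976, 0.976 and 0.968 with untreated replicates 1, 2 and 3. With the 4 h arrays of replicates 2 and 3 it correlated less, at 0.945 and 0.957. The number of arrays limits the precision, and the 3 replicates are independent experiments per the methods.

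Of 138745 features, 2995 controls were left out. The platform's annotation assigns 36176 transcripts to a single gene, of which 35528 have TC identifiers, 1119 to several genes and 98455 to none. Of the gene IDs, 24543 matched RefSeq (GRCh38.p14), which gave coordinates and promoters. No value column was left without a sample, so 0 were unused.

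The 9 HT-29 arrays were fitted with limma 3.58.1 (R 4.3.3, lmFit and eBayes), with Benjamini-Hochberg adjustment over 135750 transcripts, and replicates 2 and 3 were fitted again alone. Lines were compared by an interaction contrast over all 18 arrays. The replicate numbers were not taken as pairs. The naming rules took the 12 largest DETs in each direction with groups that do not overlap, the 8 largest of replicates 2 and 3, up to 4 members per list, the genes the study names, the markers and the adjusted calls. Some further genes, such as NRG1, MAP2K3, NUAK2, BACH2 and VCL, are named outside these rules. The members and the 30 lists (547 of 597 entries measured) were chosen with earlier results of these data known. In the lists a gene with several transcripts is represented by its brightest. The fit was tested on simulated data. Further software was pandas 2.3.3 and numpy 2.4.6 under Python 3.11.15, matplotlib 3.10.9 for figures, and the data.table package at version 1.17.8. Alternatives were fits of other arrays, a replicate block, the methods' t-test, other limma settings, filters, gene means, other scalings and leaving out each array.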

Additional observations from a re-analysis of the deposited data

Results flagged for a closer look

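The effects of ER at 4 h and at 24 h differed in HT-29 cells for 6 of the single-gene DETs, by limma's contrast of 24 h against 4 h with adjustment over all transcripts. The contrast was -2.99 for THBS1, -2.93 for F3, -3.77 for DKK1 and -2.03 for POLR1G, lower at 24 h on all 3 arrays than on any 4 h array. It was 4.8 for DDIT4 and 2.07 for BCL6, higher at 24 h on all 3 arrays. For POLR1G the signal was 10.40, 9.75 and 10.42 at 4 h and 8.24, 8.08 and 8.15 at 24 h, with an adjusted p of 0.029 in limma that rose to between 0.0569 and 0.201 when any 1 array was left out.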

How the results depend on the processing

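The counts of DETs rested on the arrays and transcripts entered. Against 199 higher and 104 lower, they were 490 and 207 with all 18 arrays in 1 fit, 576 and 1190 with replicates 2 and 3 only, 64 and 39 over transcripts above the median signal, 50 and 11 over single-gene transcripts only, and 49 and 11 over means per gene, the last 3 with fewer transcripts tested. Quantile normalization gave 159 lower. Leaving out 1 array gave 116 to 769 higher and 79 to 671 lower, the highest both without the 4 h array of replicate 1 and the lowest higher count without untreated replicate 2 or 3. The methods' t-test on 6 arrays gave 258 and 146 at its threshold. Adjusted calls stayed at 0 in these settings, except for 1 with replicates 2 and 3 only. For 24 h against 4 h, 31 adjusted calls became 16 with replicates 2 and 3 only and 2 to 39 on leaving out 1 array. The cause was not tested.

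Samples with the same number deviated from their group means with correlations of 0.118, -0.148 and 0.173 between untreated and 4 h arrays. Between 4 h and 24 h arrays the correlations were 0.500, 0.198 and 0.0818 for replicates 1, 2 and 3. The main fit did not take the numbers as pairs, although the replicate 1 arrays shared their colon markers, so a block was tried beside it. A replicate block gave 264 and 137 DETs and no adjusted call, 35 adjusted calls for 24 h against 4 h and none between the lines. With replicates 2 and 3 only, the block gave 475 and 982 DETs and 0 adjusted calls, so that the call of THBS1 was lost. No DET over 3 replicates among the genes chosen by the naming rules changed direction in any setting. Other DETs named here, such as NRG1, MAP2K3, NUAK2 and BACH2, were not followed across the settings. CCNG2, a DET in replicates 2 and 3 alone, ranged from -1.44 to 0.145. F3 and BCL6 remained DETs in all settings, and THBS1, DKK1 and CCN1 in all but the methods' t-test. Signal over background per transcript was not analysed here, and the spread over 3 arrays sets what could be detected.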

Other observations

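Further gene groups held 2 of the 45 single-gene DETs that were higher at 4 h and none of the 11 that were lower; medians are of the log2 fold change at 4 h, which was 0.02 over all single-gene transcripts. Of 15 Wnt targets DKK1 was the only DET, with a list median of 0.15, and of 18 outputs of BMP, TGF-beta and Notch signalling ID2 was the only one, with a median of 0.04. Over all single-gene transcripts 0.127% were DETs higher. Ribosome biogenesis genes, which supply the factors of rRNA synthesis and ribosome assembly, had a median of 0.17 over 17 genes, with 0.18, 0.14 and 0.26 in the 3 replicates and no DET, and their median difference of 24 h minus 4 h was -0.89. Members of the KLF family had a median of 0.13 over 14 genes and the MYC and MXD network one of 0.05 over 10, both without a DET over 3 replicates. In replicates 2 and 3 alone MYC was a DET higher (10% of its list, against 0.296% of single-gene transcripts).

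No DET over 3 replicates was found among 15 p53 targets (median -0.25), 28 genes of DNA replication (-0.06), 16 circadian clock genes (-0.10), 16 heat shock proteins (-0.10), 21 chaperones and genes of the unfolded protein response (-0.02), 9 cytosolic ribosomal proteins (0.01, with -0.64, -0.25 and 1.02 in replicates 1, 2 and 3) or 10 general epithelial markers (0.01). In replicates 2 and 3 alone, 1 p53 target (6.67%), 1 replication gene (3.57%) and 1 heat shock protein (6.25%) were DETs lower. So were 1 chaperone or unfolded protein response gene (4.76%) and 1 general epithelial marker (10%), against 1.33% of single-gene transcripts. The p53 targets and heat shock proteins had positive medians in replicate 1 (0.36 and 0.06) and negative ones in replicates 2 and 3.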
